A study of Mus musculus with 4 samples.

Results

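The Z-disc and stretch response genes described here are 10 genes of striated muscle: Csrp3, Ankrd1, Ankrd2, Myoz1, Myoz2, Myot, Actn2, Actn3, Ldb3 and Des. They were chosen by function, with earlier results of these data known, so counts among them are descriptive only. All 10 were measured, by 15 probe sets that the platform annotation assigns to exactly 1 of them, out of 20380 such probe sets for 12393 genes. A probe set is a group of short probes on the array for 1 transcript. Where a gene had several, its brightest probe set by mean stood for the gene and the others served as a check. The values came from 4 samples of bulk normal muscle, 1 array each, from wild type mice on a mixed 129S4/SvJae and C57BL/6 background. Their titles are nm7, nm8, skm4 and skm5, and nothing in the labels says what the prefixes nm and skm mean, which muscle was taken, or at what age. The rhabdomyosarcomas and other tumours of the same study were not analysed here. RNA came by either of a pair of extraction routes, and the route of each sample is not given. Nothing says whether each sample was a different animal, so the spread between them may be partly technical.

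The Z-disc is the border between neighbouring sarcomeres, where alpha-actinin crosslinks the ends of the actin filaments and where many other proteins dock. It bears force at each contraction, and some of its proteins, among them Csrp3 and the ankyrin repeat proteins Ankrd1 and Ankrd2, are also found in the nucleus and are known for transcript levels that respond to stretch, load or denervation. Others are tied to a fibre type: Actn3 and Myoz1 to fast fibres, and Myoz2 to slow fibres. Desmin, the product of Des, is the intermediate filament that joins Z-discs of adjacent myofibrils.

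Upstream sequences are shown for the 4 genes that varied most between the samples, so that the differences described further on can be set beside the letters ahead of each start. The RefSeq promoter table (GRCm38.p6) held 7 of the 10 genes, in 9 windows, since Csrp3 and Ldb3 have 2 starts each. Each window is the 250 bases ahead of the start, written 5′ to 3′ on the strand of the gene, which is the minus strand for all 5 windows shown. The windows are at chr7:48848052-48848301 and chr7:48843672-48843921 for Csrp3, chr19:36119845-36120094 for Ankrd1, chr3:123034988-123035237 for Myoz2 and chr13:12340733-12340982 for Actn2. Capitals mark matches, on either strand, to an E-box (CANNTG), the MCAT motif (CATTCC, printed as GGAATG where it lies on the other strand), the MEF2 motif or the CArG box.
Csrp3 start 1: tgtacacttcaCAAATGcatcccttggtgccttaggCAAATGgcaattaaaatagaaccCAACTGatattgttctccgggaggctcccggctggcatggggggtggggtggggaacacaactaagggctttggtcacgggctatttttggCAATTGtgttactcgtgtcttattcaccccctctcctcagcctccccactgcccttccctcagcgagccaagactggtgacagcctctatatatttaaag
Csrp3 start 2: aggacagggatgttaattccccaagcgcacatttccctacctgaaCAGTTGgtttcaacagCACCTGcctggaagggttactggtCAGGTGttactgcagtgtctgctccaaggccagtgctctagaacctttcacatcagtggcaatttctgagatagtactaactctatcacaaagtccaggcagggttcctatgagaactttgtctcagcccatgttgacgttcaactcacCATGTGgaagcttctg
Ankrd1: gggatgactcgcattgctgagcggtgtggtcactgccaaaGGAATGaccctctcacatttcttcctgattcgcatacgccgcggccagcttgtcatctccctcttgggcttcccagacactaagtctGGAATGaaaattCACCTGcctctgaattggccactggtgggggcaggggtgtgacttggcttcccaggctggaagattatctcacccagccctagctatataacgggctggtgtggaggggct
Myoz2: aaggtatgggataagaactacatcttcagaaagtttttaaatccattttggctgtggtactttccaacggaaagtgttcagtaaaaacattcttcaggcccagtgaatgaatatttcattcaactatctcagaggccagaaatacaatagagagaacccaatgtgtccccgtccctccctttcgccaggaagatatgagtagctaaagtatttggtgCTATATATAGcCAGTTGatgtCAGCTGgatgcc
Actn2: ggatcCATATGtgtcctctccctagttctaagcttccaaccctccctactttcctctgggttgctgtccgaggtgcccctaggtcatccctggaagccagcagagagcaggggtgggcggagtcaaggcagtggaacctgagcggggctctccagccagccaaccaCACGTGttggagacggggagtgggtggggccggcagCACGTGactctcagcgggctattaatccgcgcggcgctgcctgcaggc

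An E-box, the motif bound by myogenic factors such as MyoD and by other basic helix-loop-helix proteins, occurs in 66.2% of the 32851 windows of this length in the table, so its presence sets few genes apart. Each Csrp3 window held 4 E-boxes, the first window at 239, 214, 191 and 100 bases ahead of the start and the second at 205, 189, 165 and 16 bases. Ankrd1 was the only one of the 7 genes with an MCAT match, the motif of the TEAD factors, at 210 and 123 bases, both on the reverse strand, and 12.6% of all windows hold one. Myoz2 was the only one with a MEF2 match, 33 bases ahead of its start and next to E-boxes at 22 and 12 bases; 2.92% of all windows hold one. Of the 3 E-boxes of Actn2, those at 84 and 48 bases read CACGTG, a form found in 6.02% of windows. A CArG box, the motif of serum response factor, was found in this table's windows of Ldb3 alone among the 7 genes, 35 bases ahead of its start, against 1.47% of all windows. E-boxes were also found at 140, 127 and 96 bases for Ankrd2 and at 220 and 36 bases for Des. A match describes letters only, and nothing here measured binding.

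The tissue label was checked first. The 6 skeletal muscle genes Acta1, Ckm, Myh4, Mylpf, Tnni2 and Mb read between 13.92 and 14.75 on the log2 scale in every sample, where the brightest value on any array was 14.76. Of 7 measured heart muscle genes, Nppa, Nppb, Myh6 and Tnni3 lay between 4.33 and 5.42. The other 3 read higher, Myl7 at 5.63 to 6.44, Myl4 at 8.57 to 8.68 and Sln at 9.37 to 10.74. The 4 arrays had medians of 7.26 to 7.30, and the 3 probe sets of the bacterial TrpnX control, which no mouse RNA should bind, read 3.40 to 4.05. In bulk tissue, fewer cells of a type and less RNA per cell cannot be told apart.

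The 10 genes divided into a variable few and a steady remainder. Csrp3 and Ankrd1 each spanned more than 1 log2 unit, that is more than 2-fold, between their lowest and highest samples. Myoz2 and Actn2 came just short of that, at 0.95 and 0.91. The other 6 spanned 0.47 or less. A range over 1 was thus found in 2 of the 10 genes, where 5.98% of all 12393 genes had one (741 genes), and leaving out nm8 or skm5 left 1 of the 10 in each case. The median range of the 10 genes, 0.43, was close to the 0.42 of all genes, so the spread was not raised over the group but lay in a few of its genes.

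**Figure D1:**
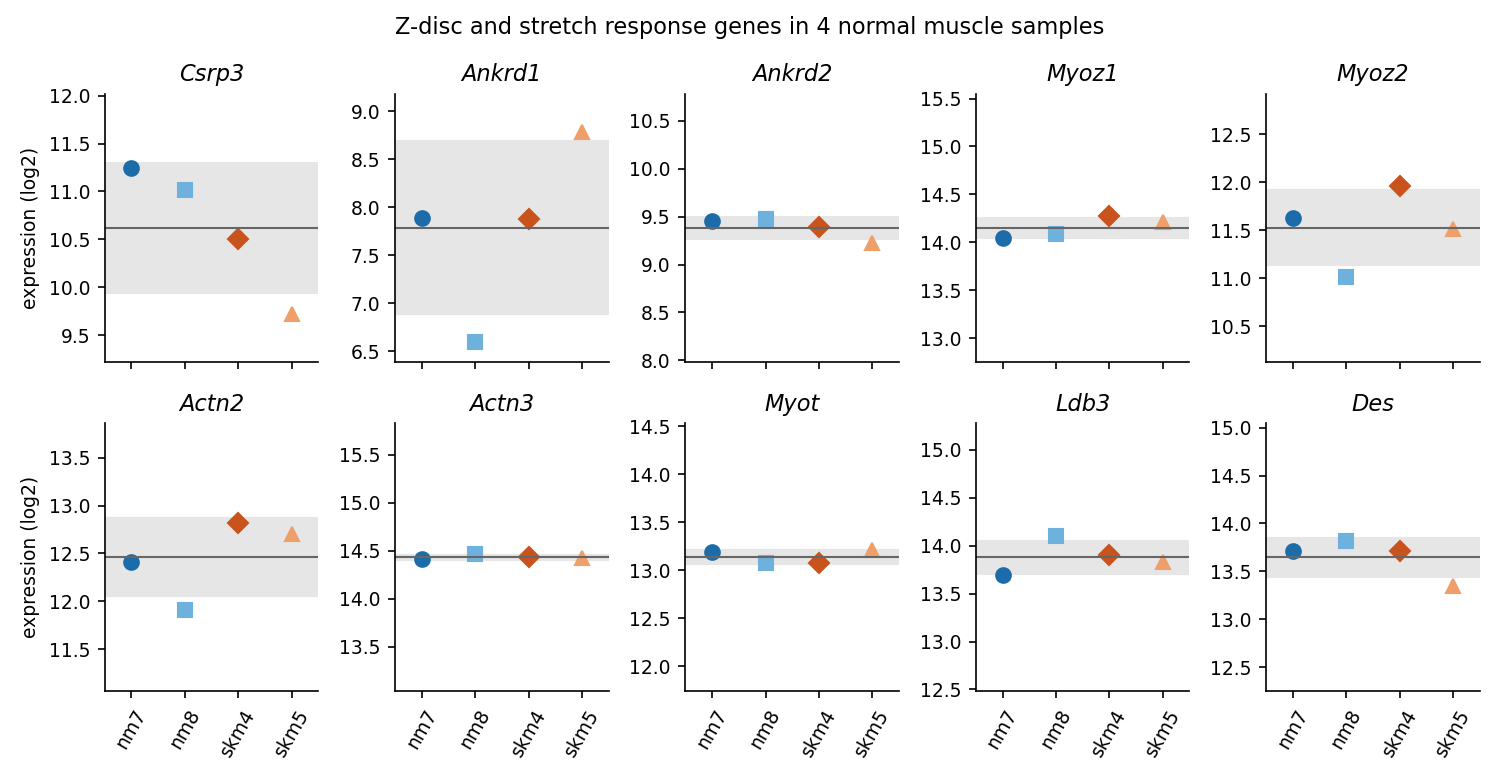
Log2 signal of the 10 genes, 1 panel per gene, in the samples nm7, nm8, skm4 and skm5; each point is 1 array, the line is the mean and the grey band is 1 SD to either side. All panels span the same height in log2 units, so that the wide scatter of Csrp3 and Ankrd1 can be set against the flat values of Actn3 (14.41 to 14.47) and Myot (13.07 to 13.21).

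**Figure D2:**
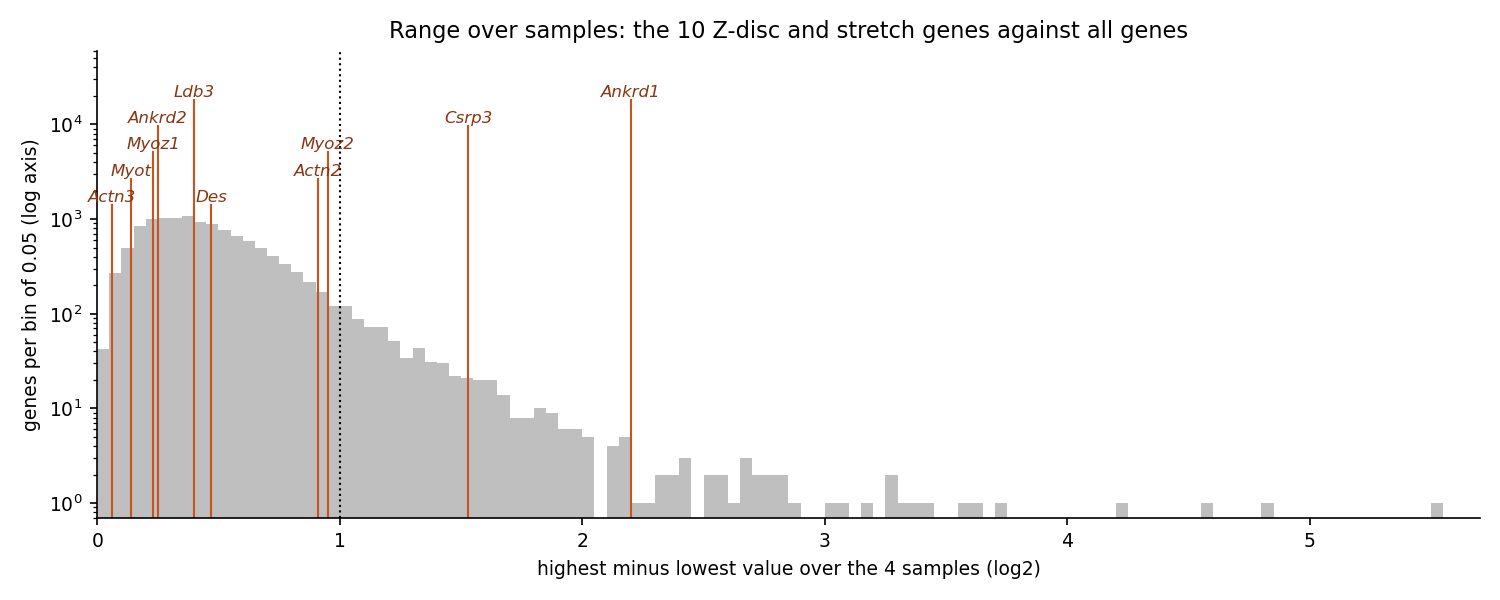
Range over the 4 samples (highest minus lowest log2 value, horizontal axis) of all 12393 genes, as a histogram with a log vertical axis, with a line for each of the 10 Z-disc and stretch genes and a dotted line at 1. Ankrd1 (2.20) and Csrp3 (1.53) lie in the right tail, and Actn3 (0.06) and Myot (0.14) near the left end.

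Among the stretch response genes, Csrp3 codes for muscle LIM protein, an actinin-binding adaptor that is most abundant in heart and slow fibres. Its single probe set read 11.25 for nm7, 11.02 for nm8, 10.50 for skm4 and 9.72 for skm5 (10.62 ± 0.68, SD, n = 4). Both nm samples lay above both skm samples, and the highest sample exceeded the lowest 2.88-fold. The range of 1.53 was wider than that of 98.7% of all genes. The skm samples averaged 1.03 lower on the log2 scale (difference -1.03 ± 0.27, SE, 95% interval -1.70 to -0.35), a 2.04-fold difference. This did not pass limma's moderated test over all genes (adjusted p = 0.109). The size of the difference rested partly on skm5, without which it was -0.64 and the range 0.75.

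Ankrd1 codes for the cardiac ankyrin repeat protein, which binds titin in the I-band near the Z-disc and is usually scarce in unloaded adult skeletal muscle. It had the widest spread of the 10, at 7.89 for nm7, 6.59 for nm8, 7.88 for skm4 and 8.79 for skm5 (7.79 ± 0.90, SD, n = 4). Sample nm8 was low and skm5 high, with nm7 and skm4 together between them, so the prefixes overlapped. The highest sample exceeded the lowest 4.59-fold, and 99.7% of all genes had a smaller range. The second probe set of Ankrd1 gave 7.14, 5.87, 7.20 and 8.15 in the same sample order, a range of 2.28, so the pattern did not depend on 1 probe set. On this second probe set nm7 lay just under skm4, so that the prefixes did not overlap, where on the first it lay just above. The difference between prefixes, 1.09 ± 0.49 (SE, 95% interval -0.14 to 2.32), did not pass the test (adjusted p = 0.255). Without nm8 the range was 0.91 and the difference 0.45, and without skm5 they were 1.30 and 0.64. The difference was 1.74 without nm7 and 1.55 without skm4.

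Csrp3 and Ankrd1 differed in where they were high. Csrp3 was lowest in skm5, the sample in which Ankrd1 was highest, and of all pairs among the 10 genes these lay farthest apart, with a root mean square distance of 1.27 between their centred log2 values over the 4 samples. Ankrd2, the skeletal muscle relative of Ankrd1 and a gene of slow fibres, stayed within 0.25: it read 9.45 for nm7, 9.48 for nm8, 9.39 for skm4 and 9.22 for skm5 (9.38 ± 0.11, SD, n = 4). The skm samples were both a little below the nm samples, by 0.15 on average (-0.15 ± 0.12, SE, adjusted p = 0.514). The difference was -0.07 without skm5 and -0.24 without skm4. Only 21.6% of genes had a smaller range than these 1.19-fold.

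The genes most like the variable pair were looked up by the same distance among the 6197 genes whose mean was no lower than that of the median gene. For Csrp3 the nearest was Rps6, which codes for a protein of the small ribosomal subunit, at a distance of 0.14, with 9.0 for nm7, 8.94 for nm8, 8.03 for skm4 and 7.37 for skm5. The kinase genes Camkk2 (0.17) and Prkg1 (0.19) followed. For Ankrd1 the nearest was Cyp2e1, a cytochrome P450 gene, at 0.17, with 11.09, 9.96, 11.24 and 11.75. The glucocorticoid-induced gene Fkbp5 (0.28) and Adamtsl4 (0.31) came next. None of these is a Z-disc gene. They were picked as the nearest of 6197 genes over only 4 samples, and any shared regulation was not tested.

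The calsarcins, Myoz1 and Myoz2, tie calcineurin to alpha-actinin at the Z-disc. Myoz1, the fast fibre form, was steady at 14.04 for nm7, 14.09 for nm8, 14.27 for skm4 and 14.21 for skm5 (14.16 ± 0.10, SD, n = 4). Both skm samples were above both nm samples, by 0.17 on average (0.17 ± 0.12, SE, adjusted p = 0.429). A dimmer probe set of Myoz1 had the same order of prefixes with a wider gap, at 9.36, 9.37, 9.89 and 9.80, a difference of 0.48 ± 0.13. Myoz2, the slow fibre and heart form, varied more, at 11.63 for nm7, 11.01 for nm8, 11.96 for skm4 and 11.51 for skm5 (11.53 ± 0.39, SD, n = 4). The prefixes overlapped, with nm8 low and skm4 high, a 1.93-fold range. The difference of 0.42 ± 0.26 (SE, 95% interval -0.23 to 1.06, adjusted p = 0.388) came down to 0.11 without nm8 and 0.19 without skm4, and was 0.72 without nm7 and 0.64 without skm5. The range of 0.95 came down to 0.45 without nm8 and 0.62 without skm4.

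The alpha-actinins themselves parted in the same way. Actn3, the fast fibre form, read 14.41 for nm7, 14.47 for nm8, 14.43 for skm4 and 14.42 for skm5 (14.43 ± 0.03, SD, n = 4). Its range of 0.06 was smaller than that of all but 0.541% of genes. Actn2, which every fibre type and the heart use, read 12.41 for nm7, 11.91 for nm8, 12.82 for skm4 and 12.70 for skm5 (12.46 ± 0.40, SD, n = 4). Both skm samples were higher, by 0.60 (0.60 ± 0.19, SE, 95% interval 0.12 to 1.08), or 1.52-fold, which did not pass the test over all genes (adjusted p = 0.149). Without nm8 the difference was 0.35 and the range came down from 0.91 to 0.41. Myoz2 and Actn2 had profiles close to each other, at a distance of 0.16, and both were lowest in nm8 and highest in skm4. Values near 14 lie close to the top of the scale of these arrays, where differences can be compressed, and the part of this in the small ranges of Actn3 and Myoz1 was not tested.

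The remaining genes code for anchoring and linking proteins. Myot codes for myotilin, which crosslinks actin and binds alpha-actinin and filamin C, and it read 13.19 for nm7, 13.07 for nm8, 13.07 for skm4 and 13.21 for skm5 (13.13 ± 0.07, SD, n = 4). These values overlapped between prefixes (difference 0.02 ± 0.13, SE, 95% interval -0.30 to 0.33). Ldb3 codes for ZASP (also Cypher), a PDZ and LIM protein that binds alpha-actinin, and it read 13.69 for nm7, 14.10 for nm8, 13.90 for skm4 and 13.83 for skm5 (13.88 ± 0.17, SD, n = 4). Both nm samples were at the ends of its range, and the prefixes differed by -0.03 ± 0.17 (SE, 95% interval -0.45 to 0.39).

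The 3 probe sets of Ldb3, a gene with many splice forms, disagreed in sign. The second gave 12.77, 12.83, 12.60 and 12.67, with both skm samples lower (-0.17 ± 0.13). The third gave 11.16, 11.35, 11.74 and 11.32, with skm4 alone high (0.28 ± 0.18). No direction between the prefixes can therefore be given for Ldb3. Des read 13.71 for nm7, 13.82 for nm8, 13.71 for skm4 and 13.35 for skm5 (13.65 ± 0.20, SD, n = 4). Sample skm5 stood lowest, and skm4 lay just under nm7, so that the difference of -0.24 ± 0.16 (SE, 95% interval -0.64 to 0.16, adjusted p = 0.432) was -0.06 without skm5 and -0.42 without skm4. A dim second probe set of Des, at 5.88, 5.50, 6.17 and 5.80, had the opposite sign (0.30 ± 0.20).

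Between the title prefixes, none of the 10 genes passed limma's test at an adjusted p of 0.05, where 0.0323% of all genes did (4 of 12393). At an unadjusted threshold of 0.05, 2 of the 10 passed, Csrp3 and Actn2, against 23.5% of all genes. With only 2 samples per prefix, an exact permutation test cannot give a p below 0.33, short of any usual threshold. The groups did not overlap for 5 of the 10 genes, where 54.4% of all genes did not overlap. Of these 5, Myoz1 and Actn2 were higher in both skm samples, a direction found in 25.8% of all genes, and Csrp3, Ankrd2 and Des were lower, a direction found in 28.6%. The counts of the 10 genes were thus near or below those of all genes, and their median difference was 0.00.

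Csrp3 passed under other settings of the test, in which a larger share of all genes passed too. When only genes at or above the median level were tested, Csrp3 had an adjusted p of 0.0465, among 16.6% of the genes tested (1026 of 6197). When the variance was allowed to vary with intensity, it had 0.034, among 8.96% of genes (1110 of 12393). Over all alternatives its adjusted p ran from 0.034 to 0.314, and the sign of its difference was negative in each. Of the 10 genes, none other passed under these settings, and Ankrd1, with a mean below the median gene, was not among those kept by the filter. A count of 1 among the 10 genes was thus near or below the share of all genes.

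**Figure D3:**
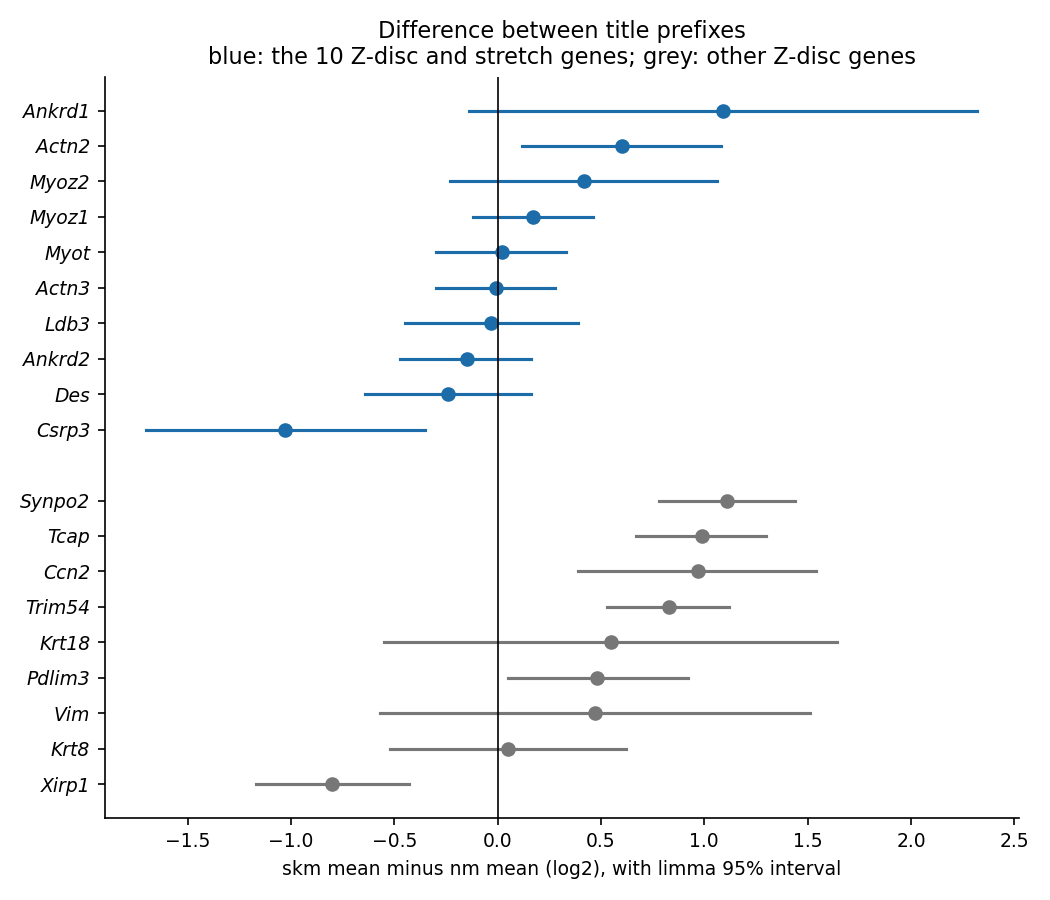
Difference between title prefixes (mean of skm4 and skm5 minus mean of nm7 and nm8, log2), with its 95% interval from limma. The 10 genes are in blue and the other Z-disc genes named in the text in grey. Of the 10 genes, the intervals of Csrp3 (-1.70 to -0.35) and Actn2 (0.12 to 1.08) do not include 0, and that of Ankrd1 (-0.14 to 2.32) is the widest. Of the grey genes, those of Tcap, Synpo2, Trim54, Xirp1, Ccn2 and Pdlim3 do not include 0, and those of Vim, Krt18 and Krt8 do.

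No sample was high or low across the group. The highest value fell in nm8 for 4 genes, in skm4 for 3, in skm5 for 2 and in nm7 for 1. For all genes these shares were 27.2%, 29.3%, 20.6% and 22.9%. The lowest fell in nm8 for 4 genes, in nm7 and skm5 for 3 each and in skm4 for 0. For all genes the lowest fell in nm8 for 21.8%, in nm7 for 26.5%, in skm5 for 25.0% and in skm4 for 26.6%. Ordering the samples from high to low, Ankrd1 and Myot shared skm5, nm7, skm4, nm8, an order that 2.72% of all genes had, although Myot spanned 0.14 and Ankrd1 2.20. Ankrd2 and Des shared nm8, nm7, skm4, skm5 (7.34% of all genes), and Actn3 and Ldb3 shared nm8, skm4, skm5, nm7 (3.36%). In the flat genes such an order turns on differences of a few hundredths.

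The genes tied to slow fibres outside the 10 had an order of their own. The median of 10 slow fibre genes, each centred on its own mean, was 0.29 for nm7, -0.22 for nm8, 0.38 for skm4 and -0.42 for skm5. For example, the slow myosin gene Myh7 read 12.92 for nm7, 12.46 for nm8, 12.83 for skm4 and 11.64 for skm5. The slow troponin genes Tnni1 (11.64, 11.12, 11.98 and 11.02) and Tnnt1 (12.21, 11.66, 12.33 and 11.46) read alike. Of the 10 slow fibre genes, 8 were higher in both nm7 and skm4 than in nm8 and skm5, on the probe set that stood for each gene. Some dimmer probe sets of Tpm3 and Atp2a2 had this pattern too. Others did not, such as those at 10.76, 10.54, 10.04 and 10.34 for Tpm3 and at 11.11, 10.74, 10.72 and 10.54 for Atp2a2. Myoz2 was the only one of the Z-disc and stretch genes with that pattern, which 10.2% of all genes had. Csrp3, high in both nm samples, and Ankrd1, highest in skm5, did not have it. In the slow fibre list, Casq2 and Pln did not have it either. Casq2 read 10.54, 10.80, 10.04 and 9.96, higher in both nm samples as Csrp3 was, and Pln read 5.99, 6.56, 6.71 and 6.13. The 11 fast fibre genes ranged over 0.02 to 0.21, as Actn3 and, nearly, Myoz1 did. They read 14.02 to 14.76, near the top of the scale, and the part of compression in their small ranges was not tested. Dimmer probe sets of Myh1, Tnni2 and Tpm1 ranged over 0.14 (Tpm1) to 1.66 (Tnni2). The part of fibre makeup in the spread of Myoz2 was not tested.

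**Figure D4:**
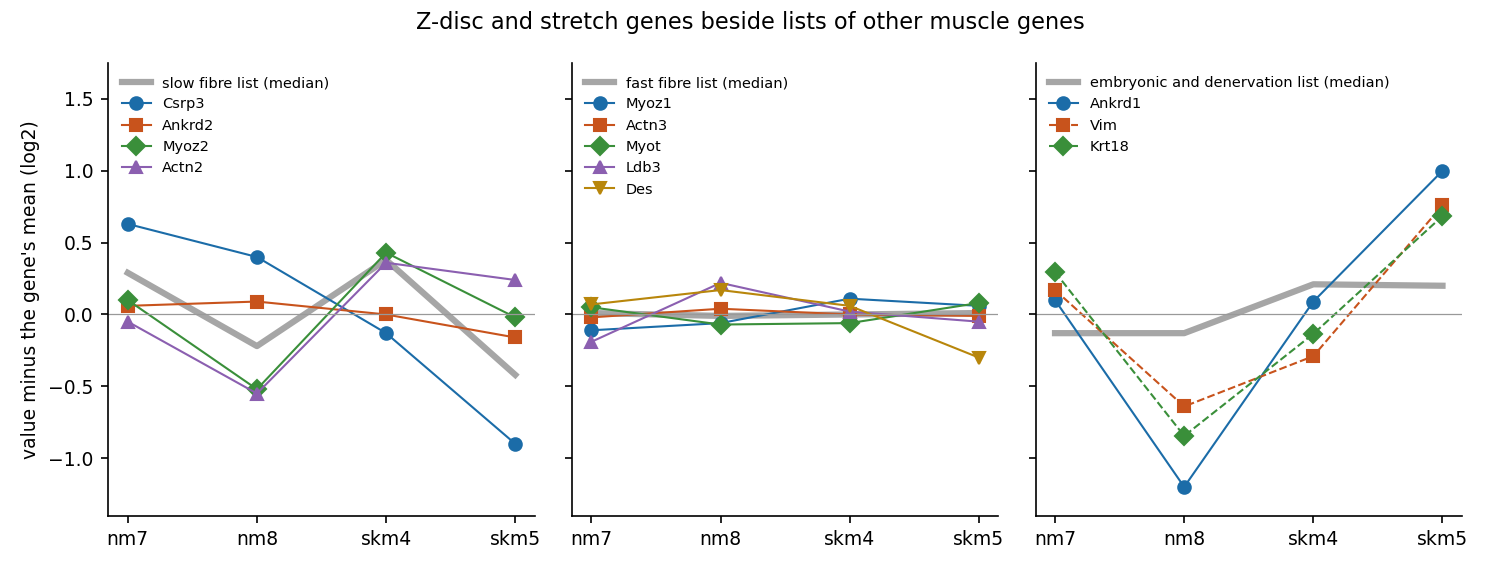
Centred log2 values (each gene minus its mean over the 4 samples) of Z-disc and stretch genes and of lists of other muscle genes in nm7, nm8, skm4 and skm5; lines only join the values of 1 gene or list, as the samples have no order. The slow fibre median (0.29, -0.22, 0.38, -0.42) and the fast fibre median (0.01, -0.01, 0.00, 0.01) can be set against Csrp3 (0.63, 0.40, -0.13, -0.90) and Ankrd1 (0.10, -1.20, 0.09, 1.0). The fast fibre genes read 14.02 to 14.76, near the top of the scale, where differences can be compressed.

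Around the 10 genes, 49 of 60 other genes of the Z-disc and its surroundings were measured: 17 structural genes, 23 stretch, chaperone and signalling genes and 9 intermediate filament partners of desmin. None passed limma's test, and 11 had an unadjusted p under 0.05, where 23.5% of all genes had one. A range over 1 was found in 6 of the 49 (12.2%, against 5.98% of all genes). The prefixes did not overlap for 28 (57.1%, against 54.4% of all genes). Of these, 16 were higher in skm, a direction that 25.8% of all genes had, and 12 were lower, as 28.6% of all genes were. Their median difference was 0.05 and their median range 0.44, again close to that of all genes. These 49 genes too were chosen with earlier results of these data known, so their counts are descriptive only.

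The 3 with the smallest adjusted p were all higher in both skm samples. Tcap, the titin cap telethonin, read 12.83 for nm7, 12.80 for nm8, 13.89 for skm4 and 13.72 for skm5, a difference of 0.99 ± 0.13 (SE, adjusted p = 0.0506). Synpo2, an actin-bundling partner of alpha-actinin and filamin, read 9.46, 9.24, 10.46 and 10.45 (1.11 ± 0.13, SE, adjusted p = 0.0506). Trim54, a ubiquitin ligase of the sarcomere also called MURF3, read 11.04, 11.08, 11.93 and 11.84 (0.83 ± 0.12, SE, adjusted p = 0.0524). All 3 lay just outside the threshold and passed it under some alternatives, with adjusted p over the alternatives from 0.00548 to 0.212 for Tcap. Actn2, which shares its sample order with Tcap and Synpo2, had a smaller difference, and 9 of the 49 genes (18.4%) had that order, against 6.27% of all genes.

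In the opposite direction, Xirp1, an actin-binding protein of muscle injury and remodelling, read 10.55 for nm7, 10.27 for nm8, 9.67 for skm4 and 9.54 for skm5 (-0.80 ± 0.15, SE, adjusted p = 0.0673). It had the sample order of Csrp3, as did Ttn, Flnc and Rcan1, in all 4 of the 49 genes (8.16%), against 5.04% of all genes. Ttn and Flnc spanned only 0.32 and 0.43. Ccn2, a matrix protein and target of YAP and TEAD, read 10.34, 9.71, 11.11 and 10.88 (0.97 ± 0.23, SE, adjusted p = 0.0938), with its low value in nm8 as Ankrd1 had. Of the partners of desmin, Vim read 11.85, 11.04, 11.39 and 12.44 and Krt18 read 5.67, 4.53, 5.24 and 6.06, both in the sample order of Ankrd1 and both overlapping between prefixes. The other probe sets of Vim did not keep that order: one, nearly as bright, gave 11.42, 11.29, 11.83 and 12.06, with both skm samples higher, and the third gave 11.59, 11.18, 11.12 and 11.88. The keratin Krt8 varied less than Krt18, at 5.31, 5.95, 5.61 and 5.75, a range of 0.64. Both keratins were dim, with means of 5.38 for Krt18 and 5.66 for Krt8, where the median gene had 7.86. Little weight can therefore be put on the sample order of Krt18. Pdlim3, an alpha-actinin-associated LIM protein, read 12.51, 12.24, 12.68 and 13.03, lowest in nm8 and highest in skm5 as Ankrd1 was.

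Embryonic, denervation and regeneration genes are of interest beside Ankrd1, whose transcript is known to rise in denervated muscle. Of 13 measured, none passed the test, and 9 were higher in both skm samples, a direction that 25.8% of all genes had. Their median difference was 0.27, where that of all genes was 0.00. Myod1 read 8.56 for nm7, 8.19 for nm8, 9.62 for skm4 and 9.62 for skm5 (1.24 ± 0.16, SE, adjusted p = 0.0506). Myog read 8.94, 9.45, 9.76 and 10.09 (0.73 ± 0.22, SE, adjusted p = 0.133). The embryonic myosin Myh3 read 8.51, 7.96, 8.72 and 7.76, with a difference of 0.00. This list was chosen with earlier results of these data known, so its counts are descriptive only. Whether denervation or regeneration had a part in these values or in those of Ankrd1 was not tested.

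Markers of other cell types also differed in level between these samples. All 9 measured lymphocyte markers were lower in both skm samples, as Csrp3 was, though none passed limma's test and 28.6% of all genes were lower in both. Their summed level was 11.68 for nm7, 11.87 for nm8, 9.46 for skm4 and 10.57 for skm5, on the log2 scale. The summed level of 8 keratinocyte markers was 9.49, 9.78, 9.61 and 11.10, highest in skm5, the sample in which Csrp3 was lowest and Ankrd1 highest. Of these markers, Ivl (5.49, 6.03, 5.93 and 5.58) and Sfn (6.06, 6.13, 6.17 and 6.12) were not highest in skm5. For 6 tendon markers the summed level was 13.41, 12.82, 13.15 and 13.10, lowest in nm8 as for Ankrd1, Myoz2 and Actn2. The tendon marker Fmod was lowest in skm5 (12.22, against 12.24 in nm8). The 4 Schwann cell markers summed to 12.80, 12.70, 12.25 and 13.21, and 8 smooth muscle markers to 13.79 to 13.94. The 7 heart muscle markers summed to 10.26 to 11.17, most of it from Sln and Myl4. The adipocyte list (6 measured) summed to 14.49, 14.47, 14.06 and 14.40. Adipoq, Pparg and Lep were lower in both skm samples, and Fabp4, Retn and Cidec overlapped between prefixes. The most different of these was Lep, at 9.28, 9.55, 6.80 and 7.50 (-2.26 ± 0.26, SE, adjusted p = 0.0506). The 8 endothelial markers summed to 12.17, 12.14, 12.36 and 12.46. Of these, 3 were higher in both skm samples and 2 lower, where 25.8% and 28.6% of all genes were. Pecam1 read 7.77, 7.83, 8.92 and 9.29 and Ramp2 read 9.76, 9.64, 10.65 and 10.72 (both adjusted p = 0.0506). The 8 macrophage markers summed to 12.70, 12.63, 12.10 and 12.58. Of these, 2 (Csf1r and Mrc1) were lower in both skm samples, as 28.6% of all genes were, and the rest overlapped between prefixes. No marker of these 3 lists passed limma's test. Whether these cells had a part in the values of the 10 genes was not tested.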

How the data were processed

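RNA of 4 normal muscle samples was measured on Affymetrix arrays. Per the submitters' processing notes, the deposited log2 values were made by the authors with RMA in Affymetrix Expression Console 1.1; no genome build was named for the arrays. Of 22690 probe sets, 64 controls, 691 with several genes and 1555 unnamed in the annotation used here were left out, and 20380 with 1 gene were used, the one with the highest mean per gene. The samples form 1 group; samples of the title prefix skm were compared with those of nm by limma 3.58.1 (lmFit, eBayes, 2-sided) in R 4.3.3, fitted on all 12393 genes with Benjamini-Hochberg adjustment at 0.05, which was tested on simulated data. The 4 arrays limit the precision. The 10 genes and all lists were chosen with earlier results of these data known. Named genes were the 10 genes, the 3 nearest to each gene with a range over 1, and per list the 3 with the largest range and, for Z-disc lists, the 2 with the largest difference. Alternatives were quantile normalization, median centring, a level filter, the mean of probe sets, leaving out _x_at and _s_at probe sets, an intensity trend, all probe sets in place of genes and leaving out each sample. Promoter motifs were searched on both strands of RefSeq windows (GRCm38.p6).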

Additional observations from a re-analysis of the deposited data

How the results depend on the processing

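Of 99 alternative values for the differences of the 10 genes between prefixes, 90 kept their direction and side of the threshold, 2 passed it (both Csrp3) and 7 changed sign. A value that came to 0.00 was counted with the 90, as for Myot with quantile normalization. The sign changed for Myot when samples were left out in turn (-0.05 to 0.08), for Actn3 with median centring (0.01) and samples left out (-0.04 to 0.01), for Ldb3 with the mean of probe sets (0.03) and samples left out (-0.23 to 0.17), and for Des with the mean of probe sets (0.03). A range over 1 was found in 1 gene with the level filter, which leaves Ankrd1 out, and in 1 to 2 with samples left out. Of the 10 genes, 1 passed limma with the filter and 1 with the intensity trend. The count without overlap was 6 to 10 with samples left out, where a prefix with 1 sample overlaps less by construction. The share of all genes without overlap was not counted in those settings, so these counts are not read as a result about the 10 genes. Among the other 49 Z-disc genes, none passed in the main setting, 3 with quantile normalization, 7 with the filter (of 41 kept), 2 with the mean of probe sets, 2 without _x_at and _s_at probe sets and 7 with the intensity trend; the 7 were Tcap, Synpo2, Trim54 and Ccn2 (higher in skm) and Capza1, Xirp1 and Wwtr1 (lower). Over all genes, 4 passed in the main setting, 186 with quantile normalization, 1026 with the filter, 92 with the mean of probe sets, 142 without _x_at and _s_at probe sets, 1110 with the intensity trend and 326 probe sets, and 0 to 15 with samples left out, where the lone sample of a prefix is assumed to vary like the others. The cause of these shifts was not tested. No paired analysis was possible because the samples form 1 group, in which no replicate number is shared. Dim probe sets near 6 and bright ones near the top of the scale bound what can be measured for Des and Actn3.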
